A study of Mus musculus with 12 samples.

Results

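Matrix metalloproteinases (MMPs), ADAMTS proteases, ADAMTS-like proteins and tissue inhibitors of metalloproteinases (TIMPs) were followed in primary mouse skin fibroblasts with and without the NADPH oxidase gene Nox4, before and after stimulation with TGF-β2. The members were the genes of the count table whose GENCODE symbol begins with Mmp, Adamts, Adamtsl or Timp and a number, with Adamtsl3 left out. This gave 50 of 21556 genes, namely 23 MMPs, 19 ADAMTS proteases, 4 ADAMTS-like genes and 4 TIMPs. The rule used names only.

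There were 12 RNA libraries, 3 for each of 4 groups. WT cells came from C57BL/6 mice and Nox4 KO cells from the strain B6.129-Nox4tm1Kkr/J, and all were fibroblasts isolated from abdominal skin and expanded in culture. One group of each genotype received 10 ng/ml of TGF-β2 for 24 h and the other served as the control. WT and Nox4 KO animals descended from a cross of heterozygous mice and were then bred as separate litters, and the cells had been passaged several times and starved before stimulation. The labels do not tie the libraries to separate animals or cultures, so the p-values measure the spread between these libraries. No allele or agent was shared by all 4 groups.

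MMPs are zinc endopeptidases that cleave collagens, gelatin, proteoglycans and many non-matrix proteins, either after secretion or at the cell surface. ADAMTS proteases are secreted relatives with thrombospondin repeats, among which some cut the large proteoglycans versican and aggrecan, some remove the amino-terminal propeptide of fibrillar procollagens, and others cleave cartilage oligomeric matrix protein (COMP). ADAMTS-like proteins share the repeats but lack the catalytic domain. TIMPs block the active site of MMPs, and TIMP-3 also inhibits several ADAMTS proteases. In skin, fibroblasts are a main source of these proteins, and TGF-β is a known regulator of their balance during repair and fibrosis.

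Library totals were between 35118344 and 43796260 counts, so that 3 counts in a gene of 2 kb of exon corresponded to 0.0342 to 0.0427 RPKM (counts scaled by exon length in kilobases and by the library total). Fibroblast markers summed to 5610 to 6340 RPKM in WT control, 4170 to 5310 in stimulated WT, 5210 to 7080 in Nox4 KO control and 4460 to 5670 in stimulated Nox4 KO. All 9 were above 1 RPKM in at least 1 library of every group. With TGF-β2, 2 of them were called lower in WT (5.1% of all genes) and 1 in Nox4 KO (4.6%). These were Pdgfra in both genotypes (log2 fold change -3.35 and -2.98) and Col3a1 in WT. Keratinocyte markers stayed under 1 RPKM when summed over 6 genes, adipocyte markers summed to at most 0.282 RPKM, and endothelial markers to between 1.68 and 5.38 RPKM. Myeloid markers, 14 genes led by Lyz2, varied between libraries of a group, from 32.8 to 163 RPKM in WT control, 29.3 to 120 in stimulated WT, 26.1 to 126 in Nox4 KO control and 18.4 to 94.6 in stimulated Nox4 KO. None of the myeloid markers was called in any comparison, and none of them was at 0 in a whole group. Nox4 itself had 203 to 398 counts in WT control, 1314 to 2471 in stimulated WT, 102 to 207 in Nox4 KO control and 782 to 1175 in stimulated Nox4 KO. A count over the whole gene does not show which exons the reads came from, and therefore does not check the disrupted allele. The Nox4 KO libraries numbered 3 stood apart from the other Nox4 KO libraries for several members, for which the Nox4 KO value without both of them is also given. This was not particular to Nox4 KO. Of 27 members with a mean of at least 1 RPKM, WT control replicate 3 was highest of its group for 16 and lowest for 9. The Nox4 KO libraries numbered 3 were so for 12 and 14 in control and for 11 and 16 after TGF-β2. No such fit was run for WT.

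Of the 50 members, 27 reached a mean of 1 RPKM in at least 1 group, 15 had reads but stayed under a mean of 1 RPKM in every group, and 8 had at most 3 counts in every library. Promoter windows, the 250 bases before the start of transcription in RefSeq (GRCm38.p6), were found for 35 members, some with more than 1 start, which gave 38 windows. Adamts4, Adamts5, Adamts6, Adamts7, Adamts8, Adamts10, Adamts15, Adamts16, Adamts19, Adamtsl1, Mmp2, Mmp9, Mmp16, Mmp17 and Mmp19 had no entry. The windows were searched on both strands for 4 short motifs. These were the AP-1 element TGANTCA, the cyclic AMP response element TGACGTCA, the forkhead element GTAAACA and the CAGA element CAGACA of SMAD-bound promoters. The AP-1 element was present in 8 of the 38 windows of members (21.1%) and in 6.75% of all 32851 windows of the genome. All 8 belonged to genes of the cluster of MMP genes on chromosome 9, where 10 members had a window, and the 26 windows of members outside chromosome 9 held none. The other motifs were found in 0, 2 and 6 windows of members, in the order given (0%, 5.26% and 15.8%), beside 1.55%, 3.17% and 17.1% of all windows.

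The windows below are shown because they set a stromelysin with a mean above 1 RPKM beside 2 neighbours of the cluster that stayed under it, and because Timp1, Mmp14, Adamts1 and Adamts9 were among the members with the largest changes or levels. They lie at chr9:7445572-7445821 (Mmp3), chr9:7502092-7502341 (Mmp10), chr9:7272264-7272513 (Mmp13), chrX:20869916-20870165 (Timp1) and chr14:54431348-54431597 (Mmp14) on the plus strand, and at chr16:85803114-85803363 (Adamts1) and chr6:92943535-92943784 (Adamts9) on the minus strand. Sequences run 5′ to 3′ toward the start of transcription, and capitals mark matches to the motifs.
Mmp3: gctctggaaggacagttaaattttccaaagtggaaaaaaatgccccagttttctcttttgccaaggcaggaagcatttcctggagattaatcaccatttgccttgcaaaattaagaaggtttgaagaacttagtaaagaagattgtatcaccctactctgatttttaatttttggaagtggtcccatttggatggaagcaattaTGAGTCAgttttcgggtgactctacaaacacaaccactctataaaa
Mmp10: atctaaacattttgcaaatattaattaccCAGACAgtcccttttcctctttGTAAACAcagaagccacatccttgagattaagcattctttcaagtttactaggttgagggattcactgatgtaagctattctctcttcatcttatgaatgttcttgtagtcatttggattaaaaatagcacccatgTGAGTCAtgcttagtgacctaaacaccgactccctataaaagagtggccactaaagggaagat
Mmp13: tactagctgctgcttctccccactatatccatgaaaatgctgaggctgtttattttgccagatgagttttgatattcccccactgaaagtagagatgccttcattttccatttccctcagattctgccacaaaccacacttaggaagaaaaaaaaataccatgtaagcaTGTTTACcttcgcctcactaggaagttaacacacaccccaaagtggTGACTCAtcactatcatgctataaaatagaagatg
Timp1: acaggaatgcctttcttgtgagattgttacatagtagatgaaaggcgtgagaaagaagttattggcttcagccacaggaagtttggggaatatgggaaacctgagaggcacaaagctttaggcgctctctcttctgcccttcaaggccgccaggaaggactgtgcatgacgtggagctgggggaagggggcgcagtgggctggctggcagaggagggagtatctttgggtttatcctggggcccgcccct
Mmp14: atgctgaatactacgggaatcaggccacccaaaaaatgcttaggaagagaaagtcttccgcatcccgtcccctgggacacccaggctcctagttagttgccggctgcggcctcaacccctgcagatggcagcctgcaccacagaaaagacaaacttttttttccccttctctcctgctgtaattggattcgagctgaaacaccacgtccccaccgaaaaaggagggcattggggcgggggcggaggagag
Adamts1: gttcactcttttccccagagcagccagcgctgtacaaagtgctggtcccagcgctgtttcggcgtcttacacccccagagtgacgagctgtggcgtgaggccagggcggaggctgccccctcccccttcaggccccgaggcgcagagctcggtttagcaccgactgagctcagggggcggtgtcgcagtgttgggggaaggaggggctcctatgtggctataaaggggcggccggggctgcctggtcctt
Adamts9: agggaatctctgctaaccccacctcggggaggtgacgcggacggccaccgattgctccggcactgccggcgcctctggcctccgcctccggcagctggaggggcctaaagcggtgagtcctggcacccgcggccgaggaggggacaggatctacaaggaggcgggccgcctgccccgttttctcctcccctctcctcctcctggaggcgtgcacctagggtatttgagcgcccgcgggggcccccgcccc

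The AP-1 element began 46 bases before the start in Mmp3, 63 bases in Mmp10 and 35 bases in Mmp13. Mmp10 also held a forkhead element at 199 bases and a CAGA element at 221 bases, and Mmp13 a forkhead element at 81 bases. No match overlapped another. The windows of Timp1, Mmp14, Adamts1 and Adamts9 held no match, and their content of G and C was 54.4%, 55.2%, 65.6% and 71.2%, beside 37.2% to 40.4% in the 3 windows of the cluster. A match is a description of the letters only.

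**Figure D1:**
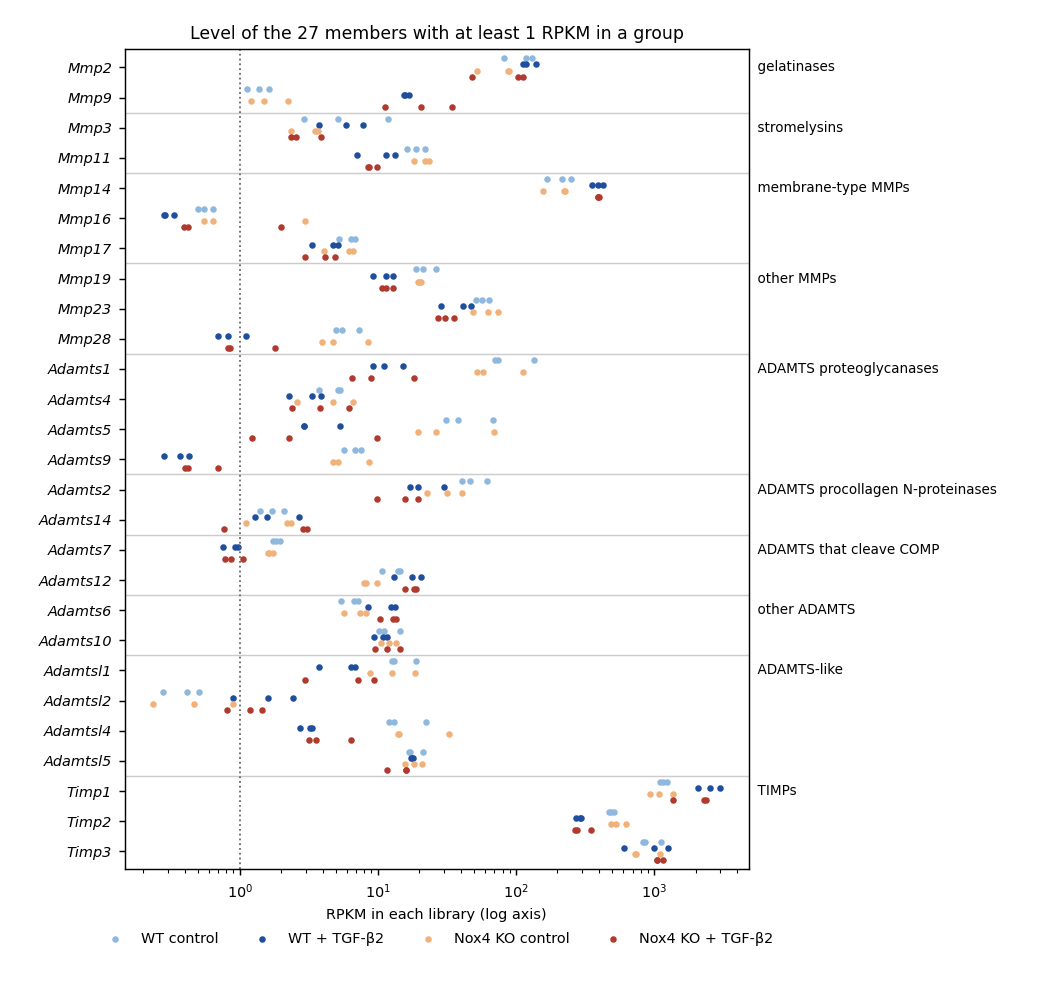
RPKM (log axis) of the 27 members with a mean of at least 1 RPKM in a group, with 1 point per library (3 per group), colored by group and ordered by subgroup. Timp1, Timp2 and Timp3 lie at the right end, Mmp14 and Mmp2 lead the proteases, and the points of stimulated libraries lie far to the left of the controls for Adamts1, Adamts5, Adamts9 and Mmp28.

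The question of the main comparison was how the members respond to TGF-β2 in each genotype. Stimulation raised the gelatinase Mmp9 and lowered 3 ADAMTS proteoglycanases, Mmp28 and Adamtsl4 in both genotypes, while the most abundant protease, Mmp14, and the most abundant inhibitor, Timp1, rose between 1.89- and 2.23-fold. A member was called when its adjusted p was under 0.05 in edgeR's quasi-likelihood test and its fold change was at least 2. In WT, 26 members were tested, of which 3 were called higher and 8 lower, where 2.64% and 5.1% of the 10743 genes tested were called higher and lower. In Nox4 KO, 27 members were tested, of which 3 were called higher and 6 lower, where 2.22% and 4.6% of 10809 genes were called. Without the limit on the fold, 5 members rose and 10 fell in each genotype, beside 10.6% and 12.3% of all genes in WT and 15.2% and 15% in Nox4 KO. Control and stimulated libraries did not overlap for 18 of the 26 members in WT (45.2% of all genes) and 15 of the 27 in Nox4 KO (48.5%). The median log2 fold change of the tested members was -0.48 in WT and -0.41 in Nox4 KO, beside -0.003 and -0.014 for all genes tested, and their median absolute log2 fold change was 0.89 and 0.90, beside 0.26 and 0.24. Single libraries moved these counts. Without stimulated WT replicate 2, 5 members were called higher in WT, without WT control replicate 3, 5 were called lower in WT, and without stimulated Nox4 KO replicate 2, 2 were called lower in Nox4 KO. Called in both genotypes were 6 members, Mmp9, Mmp28, Adamts1, Adamts5, Adamts9 and Adamtsl4.

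**Figure D2:**
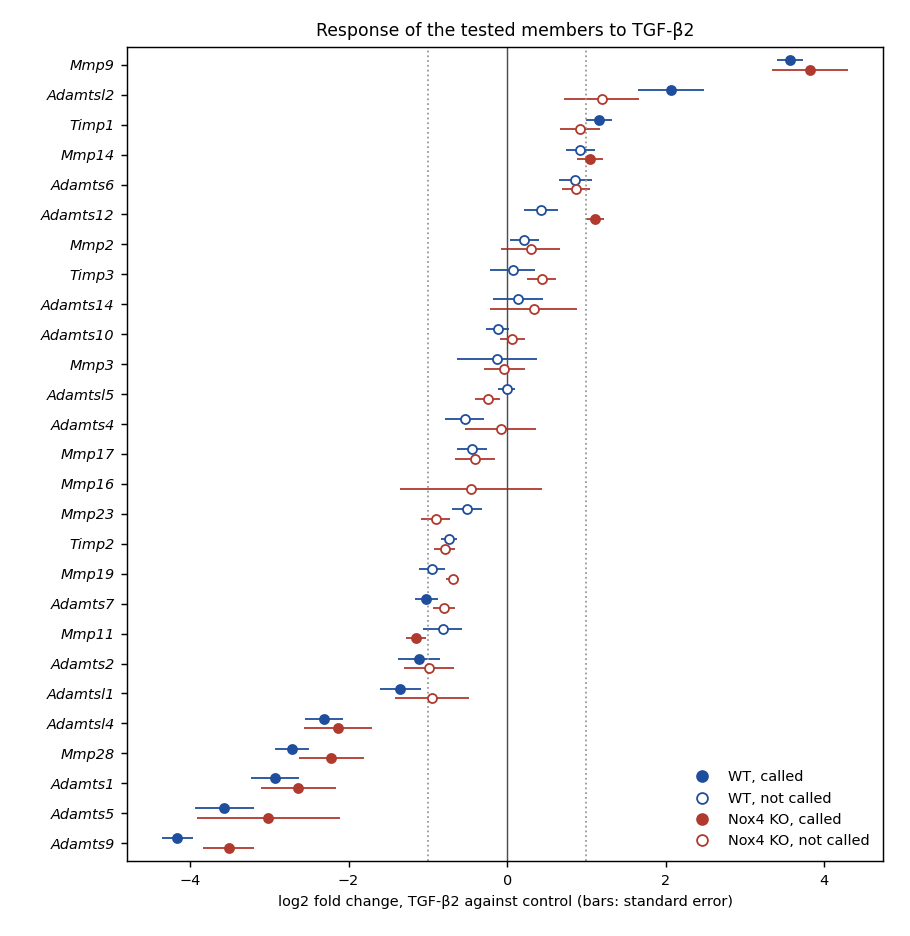
log2 fold change of TGF-β2 against control (x axis, bars are standard errors) for each tested member (y axis), in WT and in Nox4 KO, with filled points for called members and dotted lines at a fold change of 2. Mmp9 is at the top at 3.57 in WT and 3.82 in Nox4 KO, and Adamts9 is at the bottom at -4.16 and -3.52. For 25 of the 26 members tested in both genotypes the points lie on the same side of 0.

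The gelatinases degrade denatured collagen and the type IV collagen of basement membranes. Mmp9 (chr2:164940780-164955850, plus strand) was low without TGF-β2, at 1.39, 1.63 and 1.13 RPKM in the WT control libraries and 2.24, 1.51 and 1.21 RPKM in the Nox4 KO control libraries. After stimulation its level was 15.6, 16.7 and 15.5 RPKM in WT and 34.4, 20.4 and 11.2 RPKM in Nox4 KO. Every stimulated library lay above every control, and the stimulated Nox4 KO libraries were far more spread than the WT ones. The log2 fold change was 3.57 (SE 0.16, adjusted p = 0.000227) in WT and 3.82 (SE 0.48, adjusted p = 0.00498) in Nox4 KO by edgeR's quasi-likelihood test. Macrophages also make Mmp9, and the summed myeloid markers in the same order of libraries were 47.5, 29.3 and 120 RPKM in stimulated WT and 94.6, 33.6 and 18.4 RPKM in stimulated Nox4 KO. Thus Mmp9 was nearly level across WT libraries that differed in these markers, whereas in Nox4 KO the libraries had the same order for both, and the part of these cells in the Mmp9 values was not tested. As in any bulk sample, a change in the number of expressing cells and a change in RNA per cell cannot be told apart.

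Mmp2, the other gelatinase and a target of activation by membrane-type MMPs, was expressed at a far higher level. Its level was 117.7, 82.1 and 130.3 RPKM in WT control and 141, 117.7 and 112.6 RPKM in stimulated WT. In Nox4 KO it was 88.9, 87.6 and 51.9 RPKM in control and 112.6, 103.8 and 48.0 RPKM after stimulation. The groups overlapped in both genotypes, and the lowest library of each Nox4 KO group was the one numbered 3. The estimated log2 fold change of 0.22 (SE 0.18, adjusted p = 0.432) in WT and 0.30 (SE 0.37, adjusted p = 0.574) in Nox4 KO did not pass the quasi-likelihood test. Without both Nox4 KO libraries numbered 3 the Nox4 KO value was 0.38 (SE 0.06) and passed (adjusted p = 0.0132), under the limit of 2-fold.

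Membrane-type MMPs are anchored at the cell surface, where Mmp14 cleaves collagen and activates pro-Mmp2. Mmp14 (chr14:54431612-54445364, plus strand) was the most abundant protease of the family, at 250.6, 215.8 and 168.2 RPKM in WT control and 223.4, 228.6 and 157.9 RPKM in Nox4 KO control. After TGF-β2 it reached 424.5, 355.8 and 393.4 RPKM in WT and 398.5, 395.4 and 394.3 RPKM in Nox4 KO, with no overlap with the controls. It rose in both genotypes, by 0.92 on the log2 scale (SE 0.18, adjusted p = 0.0141) in WT, under the limit of 2-fold, and by 1.04 (SE 0.16, adjusted p = 0.00791) in Nox4 KO, just over it. Leaving out WT control replicate 1 or stimulated WT replicate 2 put the WT value at 1.07 or 1.0, and leaving out Nox4 KO control replicate 3, or both Nox4 KO libraries numbered 3, put the Nox4 KO value at 0.88 or 0.90, so that the side of the fold limit rested on single libraries. The WT value did not pass the test without WT control replicate 2 (adjusted p = 0.0508) or stimulated WT replicate 1 (adjusted p = 0.0598). Mmp17 was at 2.97 to 6.80 RPKM in all libraries, with log2 fold changes of -0.44 and -0.41 that did not pass the test, although in Nox4 KO it passed with the replicate block (-0.41, adjusted p = 0.00379) and without both libraries numbered 3 (-0.42, adjusted p = 0.034). The WT value of Mmp17 also passed with the replicate block (-0.45, adjusted p = 0.0211). Mmp16 was at 0.28 to 0.64 RPKM in 10 libraries but at 2.96 and 2.00 RPKM in the control and stimulated Nox4 KO libraries numbered 3, so it entered the test in Nox4 KO through these libraries alone (log2 fold change -0.46, SE 0.89, adjusted p = 0.72, and adjusted p = 0.0104 with the replicate block). Mmp15 (56 to 212 counts), Mmp24 (2 to 19 counts) and Mmp25 (8 to 32 counts) stayed under a mean of 1 RPKM in every group.

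Among the stromelysins, Mmp11, which is named stromelysin-3 and was first described in stromal cells of tumors, was called lower in Nox4 KO. Its RPKM was 22.0, 19.0 and 16.3 in WT control and 11.4, 13.4 and 7.05 in stimulated WT, and 23.3, 22.1 and 18.1 in Nox4 KO control and 8.44, 8.59 and 9.95 in stimulated Nox4 KO. The stimulated libraries were below all controls in both genotypes. The log2 fold change was -1.15 (SE 0.13, adjusted p = 0.00363) in Nox4 KO, a call, and -0.81 (SE 0.25, adjusted p = 0.0564) in WT, which missed the threshold of the same quasi-likelihood test. Under the fold limit, the WT value passed with DESeq2 (adjusted p = 0.00807), with all 12 libraries (adjusted p = 0.0146) and with the replicate block (adjusted p = 0.0087). It missed with the size factors of DESeq2 (adjusted p = 0.0535) and without the filter (adjusted p = 0.0715). Mmp3, which degrades proteoglycans and activates other pro-MMPs, ranged from 2.90 to 11.8 RPKM in WT and from 2.36 to 3.89 RPKM in Nox4 KO, with log2 fold changes of -0.13 (SE 0.50) and -0.04 (SE 0.26). Mmp10 had 5 to 71 counts.

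The collagenases, which make the first cut in fibrillar collagen, were close to absent in these libraries. Mmp13, the main collagenase of mouse tissues, had 3 to 24 counts per library with no group apart from the others. Mmp8 and Mmp1b had at most 1 count per library, and Mmp1a had 0 counts in all 12, which allows up to 3 counts in each. The matrilysin Mmp7, an enzyme of epithelia, was also at 0 in all libraries. The enamel protease Mmp20 and Mmp21 had at most 3 counts.

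Of the remaining MMPs, Mmp28, called epilysin and known from keratinocytes, fell in both genotypes. Its RPKM was 4.99, 5.53 and 7.27 in WT control and 0.83, 0.70 and 1.1 after TGF-β2. For Nox4 KO it was 3.97, 4.72 and 8.47 in control and 0.82, 0.85 and 1.79 after TGF-β2. All stimulated libraries were lower than all controls. On the log2 scale the change was -2.71 (SE 0.22, adjusted p = 0.000726) in WT and -2.22 (SE 0.41, adjusted p = 0.0128) in Nox4 KO by edgeR's quasi-likelihood test, and without stimulated Nox4 KO replicate 2 the latter was no longer called (adjusted p = 0.0588). Mmp28 shares 466 bases with a gene of the opposite strand, 1700020L24Rik, which had 15 to 139 counts and log2 fold changes of -1.82 and -2.26, and since the use of the strand in counting is not stated the reads of the pair cannot be told apart there.

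Mmp19, a broadly expressed MMP of the dermis, was at 18.9 to 26.4 RPKM in the controls of both genotypes and at 9.25 to 12.9 RPKM after stimulation. It fell by 0.94 on the log2 scale in WT (adjusted p = 0.00907) and by 0.69 in Nox4 KO (adjusted p = 0.00407), in both cases under the limit of 2-fold, which it passed in WT without control replicate 2 (-1.02) or stimulated replicate 3 (-1.05). It overlaps Tmem198b on the opposite strand by 789 bases. Mmp23, a membrane-bound MMP, was at 48.9 to 74.0 RPKM in the controls and 27.4 to 47.6 RPKM after stimulation. It fell by 0.90 on the log2 scale in Nox4 KO (adjusted p = 0.016), and its value of -0.51 in WT missed the threshold (adjusted p = 0.0987), which it passed with DESeq2 (adjusted p = 0.0438). The Nox4 KO value passed the limit of 2-fold without control replicate 3 (-1.05) or stimulated replicate 1 (-1.0), and missed the adjusted threshold without control replicate 2 (adjusted p = 0.0546) or stimulated replicate 2 (adjusted p = 0.0678). Mmp12, the macrophage elastase, had 1 to 97 counts. Its highest libraries in each group, with 97 counts in WT control replicate 3, 30 in stimulated WT replicate 3, 51 in Nox4 KO control replicate 1 and 34 in stimulated Nox4 KO replicate 1, were also the libraries with the highest summed myeloid markers of their group. Mmp27 had 0 to 10 counts.

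Of the 7 ADAMTS proteoglycanases, which cleave versican and aggrecan, 4 were tested, and 3 of these, Adamts9, Adamts5 and Adamts1, were called lower in both genotypes. Adamts9 (chr6:92772699-92943492, minus strand) was at 5.68, 6.80 and 7.54 RPKM in WT control and at 0.43, 0.28 and 0.37 RPKM after TGF-β2. In Nox4 KO it was at 4.74, 5.16 and 8.60 RPKM in control and 0.40, 0.42 and 0.70 RPKM after TGF-β2. The highest stimulated library, at 0.70 RPKM, lay far below the lowest control, at 4.74 RPKM. The log2 fold change was -4.16 (SE 0.20, adjusted p = 0.000233) in WT and -3.52 (SE 0.32, adjusted p = 0.0026) in Nox4 KO by the quasi-likelihood test of edgeR. This call held whichever library was left out.

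Adamts5, the main aggrecanase of mouse cartilage, and Adamts1 lie beside each other on the minus strand of chromosome 16. Adamts5 (chr16:85856173-85901828) was at 31.4, 37.8 and 67.9 RPKM in WT control and 2.92, 2.94 and 5.32 RPKM after TGF-β2. Its level in Nox4 KO was 19.7, 26.3 and 69.0 RPKM in control and 1.22, 2.28 and 9.88 RPKM after TGF-β2. The groups did not overlap in either genotype, and the library numbered 3 was the highest of every group. Its log2 fold change was -3.57 (SE 0.38, adjusted p = 0.00167) in WT and -3.01 (SE 0.90, adjusted p = 0.0496) in Nox4 KO in the same test. The Nox4 KO call was at the edge of the threshold and was lost without any 1 of 5 of its 6 libraries, with adjusted p from 0.0756 to 0.158, and also without the filter on low values (-2.99, adjusted p = 0.0524). It was kept without stimulated replicate 3 (-4.35, adjusted p = 0.0124), without both libraries numbered 3 (-3.63, adjusted p = 0.00476) and with the replicate number as a block (-3.34, adjusted p = 0.000463).

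Adamts1 (chr16:85793827-85803113) was the most abundant ADAMTS protease of the controls, at 70.1, 73.9 and 134.6 RPKM in WT and 52.2, 57.3 and 112.8 RPKM in Nox4 KO. After stimulation it was at 11, 9.22 and 15.1 RPKM in WT and 6.46, 8.99 and 18.2 RPKM in Nox4 KO. Again no stimulated library overlapped the controls, and the library numbered 3 was the highest of each group. The log2 fold change was -2.93 (SE 0.31, adjusted p = 0.0016) in WT and -2.63 (SE 0.48, adjusted p = 0.0121) in Nox4 KO, and the latter was no longer called by the quasi-likelihood test without stimulated replicate 2 (-2.50, adjusted p = 0.0586). Without both libraries numbered 3 it was -2.74 (adjusted p = 0.00241). Adamts4, the other classical aggrecanase, did not pass the test. Its level was 2.27 to 6.64 RPKM over all libraries, with log2 fold changes of -0.54 (SE 0.25) and -0.08 (SE 0.45). Adamts8 (4 to 38 counts), Adamts15 (1 to 392 counts) and Adamts20 (0 to 9 counts) were under a mean of 1 RPKM in every group.

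**Figure D3:**
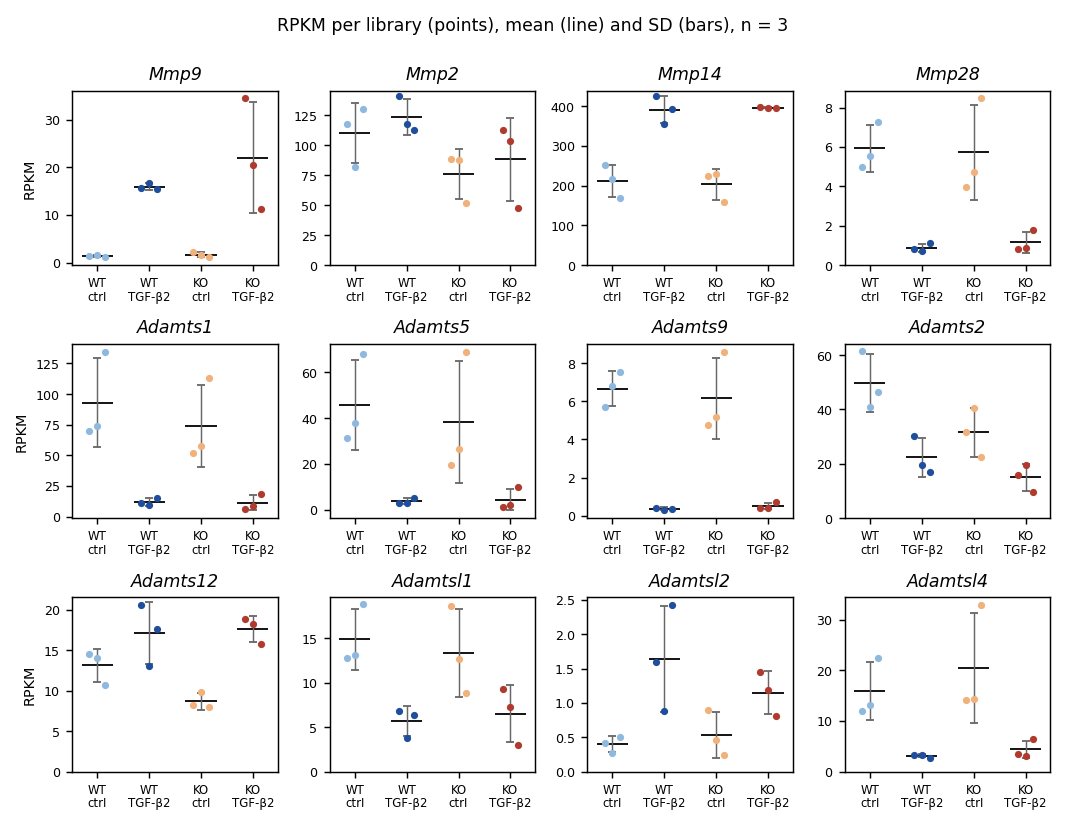
RPKM in each library (points, y axis) of 12 members by group (x axis), with the mean as a line and the SD as bars (n = 3). Mmp9 rises from 1.13 to 2.24 RPKM in the controls to 11.2 to 34.4 RPKM after TGF-β2, Mmp14 rises in both genotypes, and Mmp28, Adamts1, Adamts5, Adamts9 and Adamtsl4 fall without overlap.

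The procollagen N-proteinases remove the amino-terminal propeptides of fibrillar collagens. Adamts2, the main enzyme of this kind in skin, was at 61.6, 41.1 and 46.6 RPKM in WT control and 30.4, 19.5 and 17.2 RPKM after TGF-β2. For Nox4 KO it was at 31.7, 40.4 and 22.6 RPKM in control and 15.9, 19.5 and 9.86 RPKM after TGF-β2. The stimulated libraries were lower than the controls of their genotype throughout. The estimated log2 fold change of -1.11 (SE 0.26, adjusted p = 0.0256) was a call in WT, and that of -0.98 (SE 0.32, adjusted p = 0.0603) in Nox4 KO missed the threshold of the quasi-likelihood test. The WT call was lost without any 1 of 5 of its 6 libraries, with adjusted p from 0.0508 to 0.0824, and held only without stimulated replicate 1. In Nox4 KO each stimulated library was far below the control of its number, and with the replicate block the value passed the test just under the fold limit (-0.99, SE 0.05, adjusted p = 0.000213), as it did without both libraries numbered 3 (-0.94, adjusted p = 0.0154). Leaving out Nox4 KO control replicate 3 made it a call (-1.18, adjusted p = 0.0459). Adamts14 was at 0.77 to 3.05 RPKM, with log2 fold changes of 0.13 (SE 0.32) and 0.33 (SE 0.55), the latter 0.48 (adjusted p = 0.0193) without both libraries numbered 3. Adamts3 had 9 to 63 counts and stayed under a mean of 1 RPKM.

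Of the proteases that cleave COMP, Adamts12 rose in Nox4 KO and Adamts7 fell in both genotypes. Adamts12 was at 14.6, 14.1 and 10.8 RPKM in WT control and 20.7, 13.1 and 17.6 RPKM after TGF-β2, where the groups overlapped. In Nox4 KO it was at 8.26, 9.83 and 7.95 RPKM in control and 18.9, 18.3 and 15.8 RPKM after TGF-β2, with a clear gap. The log2 fold change was 0.43 (SE 0.21, adjusted p = 0.188) in WT (adjusted p = 0.0492 without stimulated replicate 2) and 1.11 (SE 0.12, adjusted p = 0.00353) in Nox4 KO, where edgeR's quasi-likelihood test called it whichever library was left out. Adamts7 was at 1.74, 1.82 and 1.96 RPKM in WT control and 0.97, 0.75 and 0.92 RPKM after TGF-β2. For Nox4 KO it was at 1.74, 1.60 and 1.63 RPKM in control and 1.05, 0.87 and 0.78 RPKM after TGF-β2, again below every control. It fell by 1.02 on the log2 scale in WT (SE 0.15, adjusted p = 0.00462) and by 0.79 in Nox4 KO (SE 0.14, adjusted p = 0.0111), the latter under the fold limit and short of the threshold without stimulated replicate 2 (adjusted p = 0.0548). The WT value was itself under the limit without control replicate 3 (-0.97), without stimulated replicate 2 (-0.91) and without the filter on low values (-0.98). Adamts7 overlaps Tbc1d2b on the opposite strand by 122 bases, and that gene had log2 fold changes of -1.65 and -1.23.

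Other ADAMTS proteases gave 1 rise under the fold limit. Adamts6 was at 5.43 to 8.18 RPKM in the controls and 8.45 to 13.4 RPKM after stimulation and rose by 0.86 on the log2 scale in WT (adjusted p = 0.0275) and by 0.87 in Nox4 KO (adjusted p = 0.0163). Both rested on single libraries. The WT value was 1.04, past the limit, without stimulated WT replicate 2, but missed the threshold without any 1 of the other 5 WT libraries (adjusted p from 0.0585 to 0.103). The Nox4 KO value missed it without stimulated replicate 1 (adjusted p = 0.052) or 2 (adjusted p = 0.067). Adamts10, which binds fibrillin microfibrils, was at 9.46 to 14.5 RPKM in all libraries, with log2 fold changes of -0.12 (SE 0.15) and 0.06 (SE 0.16). Adamts16 (1 to 16 counts), Adamts17 (4 to 30 counts) and Adamts18 (1 to 30 counts) were under a mean of 1 RPKM in every group, and Adamts13, the protease that cuts von Willebrand factor, and Adamts19 had at most 3 counts.

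ADAMTS-like proteins bind the fibrillin network. Adamtsl4 (chr3:95676201-95687917, minus strand), mutated in dislocation of the eye lens, was at 12.0, 13.1 and 22.4 RPKM in WT control and 3.22, 3.31 and 2.75 RPKM after TGF-β2. In Nox4 KO the corresponding values were 14.1, 14.3 and 33.0 RPKM, and 3.54, 3.15 and 6.38 RPKM. Stimulated and control libraries did not overlap. On the log2 scale the change was -2.31 (SE 0.24, adjusted p = 0.00159) in WT and -2.14 (SE 0.43, adjusted p = 0.0163) in Nox4 KO, where the quasi-likelihood test no longer called it without stimulated replicate 1 (-2.01, adjusted p = 0.0567) or replicate 2 (-1.95, adjusted p = 0.0693). Both libraries numbered 3 left out gave -2.0 with an adjusted p of 0.00158.

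Adamtsl2, which interacts with the latent TGF-β binding protein LTBP1, was the only ADAMTS-like gene called higher, and only in WT. Its level was 0.42, 0.28 and 0.51 RPKM in WT control and 1.59, 0.89 and 2.43 RPKM after TGF-β2. In Nox4 KO it was 0.90, 0.46 and 0.24 RPKM in control and 1.45, 1.20 and 0.81 RPKM after TGF-β2, where 1 control library exceeded 1 stimulated library. The log2 fold change was 2.07 (SE 0.42, adjusted p = 0.0145) in WT and 1.19 (SE 0.47, adjusted p = 0.104) in Nox4 KO. With the replicate number as a block the Nox4 KO value became a call (1.25, adjusted p = 0.007), as it did without control replicate 1 (1.79, adjusted p = 0.0463). The WT call was lost without control replicate 1 (adjusted p = 0.0548), control replicate 2 (adjusted p = 0.0568) or stimulated replicate 1 (adjusted p = 0.0502).

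Adamtsl1, or punctin, was at 12.8, 13.1 and 18.8 RPKM in WT control and 6.80, 3.73 and 6.41 RPKM after TGF-β2. For Nox4 KO it was at 18.6, 12.7 and 8.82 RPKM in control and 9.33, 7.24 and 2.98 RPKM after TGF-β2, where each library was lower than the control of the same number although the groups overlapped. Its log2 fold change was -1.35 (SE 0.26, adjusted p = 0.013) in WT and -0.95 (SE 0.46, adjusted p = 0.167) in Nox4 KO, and the replicate block made the latter a call (-1.03, adjusted p = 0.00296). Without both Nox4 KO libraries numbered 3 it was -0.83 (adjusted p = 0.0451). Without WT control replicate 3 the WT value was -1.14 with an adjusted p of 0.0518. Adamtsl5 was at 11.6 to 21.1 RPKM over all libraries, with log2 fold changes of -0.01 (SE 0.10) and -0.25 (SE 0.16), the latter past the test only with the replicate block (adjusted p = 0.0234, and 0.0428 without the filter as well).

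Timp1 and Timp3 were expressed above every protease of the family in all libraries, and Timp2 was below Mmp14 after stimulation. Timp1 (chrX:20870166-20874735, plus strand) was at 1245, 1170 and 1107 RPKM in WT control and 2565, 3030 and 2067 RPKM after TGF-β2. In Nox4 KO it was at 1083, 1385 and 942 RPKM in control and 2307, 2392 and 1385 RPKM after TGF-β2, where the lowest stimulated library, replicate 3, met the highest control. Timp1 rose by 1.16 on the log2 scale in WT (SE 0.16, adjusted p = 0.00424) and by 0.92 in Nox4 KO (SE 0.26, adjusted p = 0.0411), the latter under the fold limit. Without stimulated Nox4 KO replicate 3, or without both libraries numbered 3, the Nox4 KO value was 1.14 or 1.01 and was called. Without any 1 of the other 5 Nox4 KO libraries it missed the threshold, with adjusted p from 0.0573 to 0.136, and with the replicate block it was 0.90 (adjusted p = 0.0018).

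Timp2, the inhibitor that also helps Mmp14 to activate Mmp2, went the other way. Its level was 490, 469.5 and 514.7 RPKM in WT control and 292, 297.8 and 273.4 RPKM after TGF-β2. For Nox4 KO it was 527.8, 487.4 and 624.7 RPKM in control and 278.3, 268.3 and 349 RPKM after TGF-β2. The groups were well apart in both genotypes, and Timp2 fell by 0.73 on the log2 scale in WT (SE 0.10, adjusted p = 0.00387) and by 0.79 in Nox4 KO (SE 0.13, adjusted p = 0.0102), under the limit of 2-fold. Without stimulated Nox4 KO replicate 2 the latter had an adjusted p of 0.0506. Timp3, which is bound to the matrix, was at 830.6, 856.4 and 1133 RPKM in WT control and 992.7, 608.4 and 1261 RPKM after TGF-β2, and at 745.7, 723.1 and 1102 RPKM in Nox4 KO control and 1046, 1055 and 1160 RPKM after TGF-β2. These groups overlapped, and the log2 fold changes of 0.07 (SE 0.28, adjusted p = 0.878) and 0.43 (SE 0.18, adjusted p = 0.112) missed the threshold of the quasi-likelihood test. The Nox4 KO value of Timp3 passed it with the replicate block (0.46, adjusted p = 0.0208) and without both libraries numbered 3 (0.60, adjusted p = 0.00907). Timp4 had 0 to 4 counts.

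The 15 members with reads but a mean under 1 RPKM were not in the main test, and 4 of them, chosen after their values were seen, are given by their counts. Adamts15, a versican-cleaving proteoglycanase, had 93, 50 and 392 counts in WT control and 5, 1 and 3 after TGF-β2, and 260, 98 and 110 counts in Nox4 KO control and 4, 5 and 1 after TGF-β2. Without the filter its log2 fold change was -5.73 (adjusted p = 0.0105) in WT and -5.54 (adjusted p = 0.00441) in Nox4 KO by edgeR's quasi-likelihood test. Adamts17 had 4, 7 and 7 counts in WT control and 30, 23 and 17 after TGF-β2, and 6, 6 and 4 counts in Nox4 KO control and 27, 25 and 16 after TGF-β2. Its log2 fold change without the filter was 1.99 (adjusted p = 0.0154) in WT and 2.03 (adjusted p = 0.0188) in Nox4 KO.

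Adamts8 had 16, 9 and 14 counts in WT control and 38, 24 and 38 after TGF-β2, and 4, 19 and 9 counts in Nox4 KO control and 22, 30 and 24 after TGF-β2. It was called in WT without the filter (1.4, adjusted p = 0.0361 by the quasi-likelihood test), and its value of 1.21 in Nox4 KO missed the threshold (adjusted p = 0.122). Mmp10, a stromelysin of migrating keratinocytes in wounds, had 21, 10 and 42 counts in WT control and 48, 47 and 71 after TGF-β2, and 15, 29 and 5 counts in Nox4 KO control and 44, 68 and 20 after TGF-β2. Its stimulated WT libraries lay above the WT controls, and in Nox4 KO the groups overlapped. In Nox4 KO, where the replicate numbers pair the samples, a quasi-likelihood fit added after the data were seen, with the replicate block and no filter, also called Mmp10 (log2 fold change 1.42, adjusted p = 0.00652), Adamts8 (1.23, adjusted p = 0.046) and Adamts18 (1.96, adjusted p = 0.0122) higher. In WT the same fit also called Mmp10 higher (1.3, adjusted p = 0.024), and Mmp12 (-1.79, adjusted p = 0.0175) and Adamts3 (-1.55, adjusted p = 0.0366) lower. At these counts the sampling error is large, and the fold changes depend on the prior count of the fit.

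**Figure D4:**
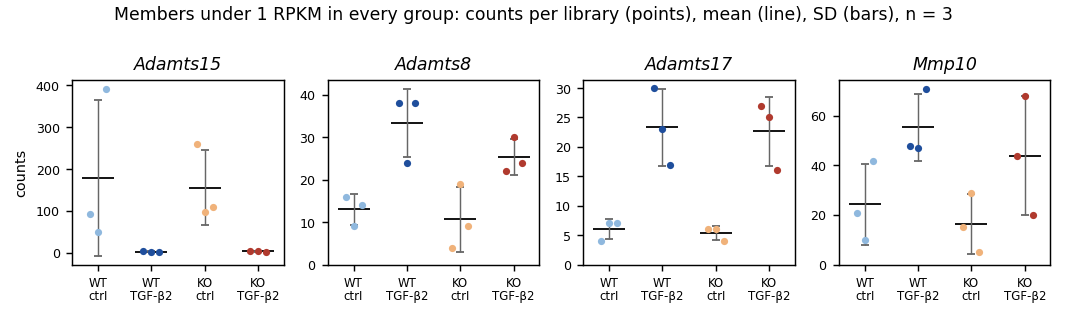
Counts in each library (points, y axis) of Adamts15, Adamts8, Adamts17 and Mmp10 by group (x axis), with the mean as a line and the SD as bars (n = 3). Adamts15 has 50 to 392 counts in the controls and 1 to 5 after TGF-β2, and Adamts17 has 4 to 7 counts in the controls and 16 to 30 after TGF-β2.

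Summed over each family, the levels were described without a test. The mean sum of the ADAMTS proteases (± SD, n = 3) was 235.9 ± 52.7 RPKM in WT control, 83.8 ± 14.8 RPKM after TGF-β2, and in Nox4 KO 187.2 ± 52.0 and 80.8 ± 2.47 RPKM. The ADAMTS-like genes summed to 49.5 ± 11.6 and 28.1 ± 2.21 RPKM in WT and to 52.7 ± 9.08 and 26.6 ± 0.895 RPKM in Nox4 KO. The sum of the MMPs was 442.5 ± 46.8 and 605 ± 46.6 RPKM in WT and 401.4 ± 71.1 and 568.4 ± 51.4 RPKM in Nox4 KO. For the TIMPs it was 2606 ± 134 and 3796 ± 174 RPKM in WT and 2540 ± 164 and 3413 ± 452 RPKM in Nox4 KO. Both sums were higher in every stimulated library than in every control of the same genotype, and the ratio of TIMPs to MMPs was 5.93 ± 0.665 and 6.30 ± 0.531 in WT and 6.52 ± 1.62 and 5.99 ± 0.374 in Nox4 KO, control and stimulated in turn.

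The make-up of each family differed between control and stimulated cells. Mmp14 held 47.8% of the summed MMPs in WT control and 64.7% after TGF-β2, and 50.7% and 69.7% in Nox4 KO. Timp1 held 45.1% and 67.3% of the summed TIMPs in WT and 44.7% and 59.4% in Nox4 KO. Among ADAMTS proteases, Adamts1 led in the controls with 39.4% in WT and 39.6% in Nox4 KO. After stimulation the leader was Adamts2 in WT (26.7%) and Adamts12 in Nox4 KO (21.8%). The sums are dominated by few genes and do not weigh the activity of the proteins.

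**Figure D5:**
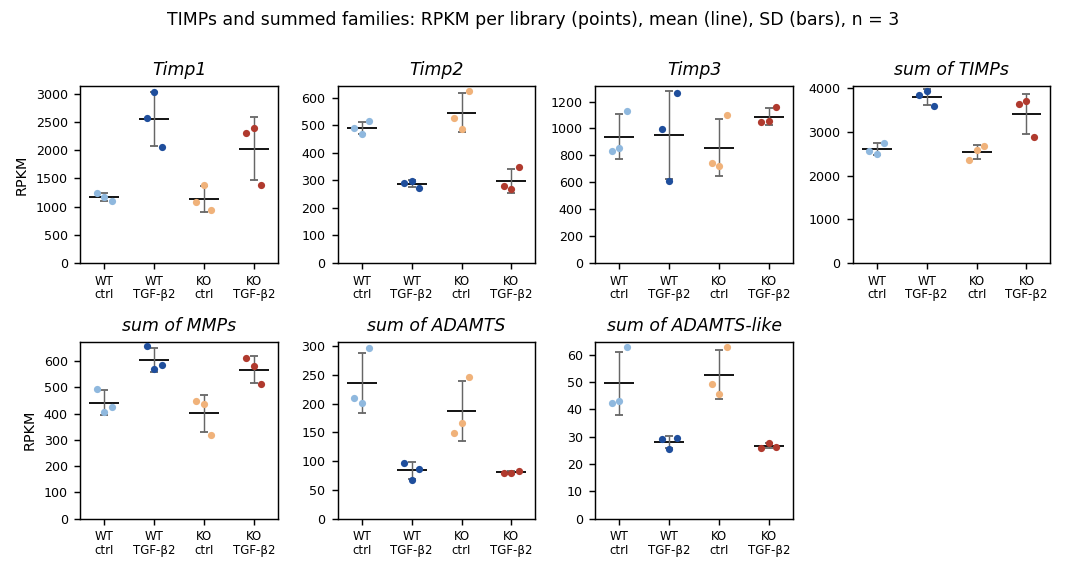
RPKM in each library (points, y axis) of Timp1, Timp2, Timp3 and of the summed families by group (x axis), with the mean as a line and the SD as bars (n = 3). Timp1 and the summed TIMPs and MMPs are higher and Timp2 and the summed ADAMTS and ADAMTS-like genes lower after TGF-β2, and Timp3 overlaps between groups.

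Genes that act with the family were read from 4 lists. Beside the calls in each list stand the shares of all genes called higher and lower, 2.64% and 5.1% in WT and 2.22% and 4.6% in Nox4 KO. The lists are short, and their counts are a description only. Of 12 activators, inhibitors and partners, 10 were tested, of which 2 were called higher and 2 lower in WT, and 1 higher in Nox4 KO. Tfpi2, a Kunitz-type inhibitor deposited in the matrix, rose with a log2 fold change of 2.68 (SE 0.15, adjusted p = 0.000351) in WT and 2.99 (SE 0.35, adjusted p = 0.00407) in Nox4 KO. The proprotein convertase Pcsk5 rose in WT by 1.25 (SE 0.18) while Pcsk6 fell by 1.07 (SE 0.17), and Reck, a membrane-anchored inhibitor of MMPs, fell by 1.37 (SE 0.14), with adjusted p between 0.00171 and 0.00649. In Nox4 KO, Pcsk5 was at 1.31 (SE 0.40, adjusted p = 0.0513), and Reck fell by 0.98 (SE 0.17, adjusted p = 0.0115), just under the fold limit. Of 16 other metalloproteinases, 12 were tested, and 1 rose and 2 fell in WT, while Nox4 KO had 1 call each way. Tll1, a procollagen C-proteinase, rose by 1.71 (SE 0.36) and 2.33 (SE 0.36), Adam33 fell by 1.42 (SE 0.27) and 1.56 (SE 0.18), and Adam23 fell by 1.22 (SE 0.10) in WT and, under the fold limit, by 0.99 (SE 0.07) in Nox4 KO, all on the log2 scale.

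Among 10 other matrix proteases, the urokinase gene Plau, whose product activates plasminogen, was the only call in either genotype, with a log2 fold change of -2.03 (SE 0.31, adjusted p = 0.00601) in WT and -1.92 (SE 0.12, adjusted p = 0.00121) in Nox4 KO. Among 12 substrates and procollagen enhancers, of which 9 were tested, Pcolce2, an enhancer of procollagen C-proteinases, rose by 1.33 (SE 0.18) in WT and 1.24 (SE 0.23) in Nox4 KO, and Col3a1 fell by 1.19 (SE 0.23) in WT and, under the fold limit, by 0.92 (SE 0.16) in Nox4 KO. The median log2 fold change of the tested genes was -0.01 and 0.05 for the partners, -0.33 and -0.05 for the other metalloproteinases, -0.19 and -0.28 for the other proteases, and -0.22 and -0.04 for the substrates, in WT and Nox4 KO in turn. As a check of the stimulation, of 6 TGF-β response genes 2 were called higher in WT and 3 in Nox4 KO, beside 2.64% and 2.22% of all genes. At any fold 4 rose in each, beside 10.6% and 15.2% of all genes. Ccn2 was called in both, at 1.57 on the log2 scale (SE 0.23) in WT and 1.59 (SE 0.27) in Nox4 KO. The smooth muscle actin gene Acta2 (0.13 and -0.06, adjusted p = 0.711 and 0.854) and Tagln (0.57 and 0.33, adjusted p = 0.0709 and 0.1) did not pass edgeR's quasi-likelihood test.

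The second question was whether loss of Nox4 changed the family. No member was called between Nox4 KO and WT, in control (26 members tested) or after TGF-β2 (24 members tested), nor in the interaction of genotype and stimulation (27 members tested). The call rate was 0% in all genes in these comparisons with the edgeR test, while edgeR on all 12 libraries together called 1 gene in control and none of the members. DESeq2 called no member either, while it called 6 genes in control, 6 after TGF-β2 and 6 in the interaction. Nox4 itself was among the genes that the edgeR test did not call. Its mean was 1.74 RPKM in WT and 0.896 in Nox4 KO in control, and 11.9 and 5.26 after TGF-β2. The paper, also with edgeR, reported a small number of genes that differed between the genotypes. The absence of a call therefore does not show that the family was unchanged. The smallest adjusted p of a member was 0.83 in control, 0.835 after TGF-β2 and 0.85 in the interaction. At an unadjusted p under 0.05, 2 members passed in control (5.54% of all genes), 1 after TGF-β2 (3.22%) and 1 in the interaction (2.66%).

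In control, these were Adamts12, at 10.8 to 14.6 RPKM in WT and 7.95 to 9.83 RPKM in Nox4 KO (log2 fold change -0.64, SE 0.16), and Adamts2, at 41.1 to 61.6 RPKM in WT and 22.6 to 40.4 RPKM in Nox4 KO (-0.69, SE 0.26). In both the genotypes did not overlap, which was seen in 13.6% of all genes tested. After TGF-β2 it was Mmp3, at 3.75 to 7.83 RPKM in WT and 2.36 to 3.89 RPKM in Nox4 KO (-0.98, SE 0.33), where the ranges touched. Adamtsl5 was the 1 member without overlap after TGF-β2 (10.1% of all genes), at 17.4 to 18.1 RPKM in WT and 11.6 to 16.1 RPKM in Nox4 KO (-0.26, SE 0.14). None of these differences passed the adjustment.

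For the interaction, the unadjusted p was under 0.05 for Adamts12, whose response in Nox4 KO exceeded that in WT by 0.69 on the log2 scale (SE 0.27, adjusted p = 0.85 by edgeR's quasi-likelihood test). The difference of the responses was 0.66 (SE 0.39) for Adamts9, 0.57 (SE 0.99) for Adamts5, 0.51 (SE 0.50) for Mmp28, 0.31 (SE 0.59) for Adamts1 and 0.27 (SE 0.50) for Mmp9. For Timp1 it was -0.22 (SE 0.31) and for Adamtsl2 -0.87 (SE 0.69). Members called in 1 genotype only, 5 in WT and 3 in Nox4 KO, were not shown to respond differently. Across the 26 members tested in both genotypes, 25 had the same direction of response, Adamts10 being the exception, as had 78.4% of the 10662 genes tested in both.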

How the data were processed

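RNA from the 12 libraries was sequenced as single-end reads. Per the study's methods and the submitters' processing notes, the authors aligned them to GRCm38 with STAR 2.4, kept those with a single location and used featureCounts 1.4.6 to assign them to the merged exons of each gene's protein-coding isoforms, and the deposited values are raw counts per gene. Whether counting used the strand is not given in the sources used here.

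From these counts, RPKM was computed with the library total and merged exon lengths of GENCODE M21. Genes with a mean of at least 1 RPKM in a group of the comparison were tested on its 6 libraries (12 for the interaction) with edgeR 4.0.16 (quasi-likelihood test, TMM, R 4.3.3) and Benjamini-Hochberg adjustment over all genes tested. The standard error was derived from the F statistic. Calls needed an adjusted p under 0.05 and a 2-fold change, or for the interaction the adjusted p alone. Alternatives were DESeq2 1.42.0 and its size factors, no filter, all 12 libraries, a replicate block, no fold limit and each library left out. The replicate block without the filter and a fit without both Nox4 KO libraries numbered 3 were chosen after seeing the data.

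The deviations of Nox4 KO libraries from the mean of their group were correlated between control and stimulated libraries of the same number (r = 0.763, 0.688 and 0.741), so the numbers pair these samples, which is a result of this check and is not stated by the labels. Members, subgroups and lists were chosen with earlier results of these data known. Members with at least 1 RPKM in a group are given in every library if called in a comparison, or if TIMPs or gelatinases, and the others by ranges. Replicates of a group differed by more than sampling noise (chi-square per gene 14.4 to 147). Limits set by a count of 0 (3 counts) cover counting error only. The procedure was tested on simulated counts of the WT comparison with 200 of 10570 genes changed, where 100% of changes of 3 and 93% of changes of 1.5 on the log2 scale were called and 0.52% of calls were unchanged genes. These counts had the same dispersion in every gene and independent libraries, unlike the real data. The rates therefore hold for that setting only and do not measure the error of the calls given here. Some genes of the lists and overlaps are not reported here.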

Additional observations from a re-analysis of the deposited data

How the results depend on the processing

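No result changed direction while called under any alternative, and the calls of Mmp9 and Adamts9 in both genotypes, of Adamts12 and Mmp11 in Nox4 KO and of Timp1, Mmp28, Adamts1, Adamts5 and Adamtsl4 in WT held in every fit run. In WT, 5 members were called higher without the filter and 5 without the fold limit, and 6 with the replicate block and no filter, beside 3. Of all genes in WT, 399 of 16828 were called higher without the filter and 10.6% without the fold limit. Leaving out 1 library in turn gave 2 to 5 higher and 5 to 9 lower. In Nox4 KO, 5 were called higher and 10 lower without the fold limit, and 8 higher with the replicate block and no filter, beside 3 and 6. Of all genes in Nox4 KO, 15.2% were higher and 15% lower without the fold limit. The share of all genes is not given for the block without the filter or for fits without a single library. Leaving out 1 library gave 2 to 4 higher and 2 to 7 lower. Without a fold limit or filter more members could be called by construction, and for single libraries the cause was not tested. The replicate block called Adamtsl1 and Adamtsl2 in Nox4 KO in addition (7 lower, 4 higher, beside 619 and 279 of 10809 genes) and changed no other call of the main comparisons. At any fold it also put Adamts2, Mmp16, Mmp17, Adamtsl5 and Timp3 past the adjusted threshold in Nox4 KO, where 6553 of all genes had an unadjusted p under 0.05, beside 4746 without it. DESeq2 at any fold passed Adamts2 (adjusted p = 0.00578) and Timp3 (adjusted p = 0.0313) in Nox4 KO, and Mmp11 (adjusted p = 0.00807) and Mmp23 (adjusted p = 0.0438) in WT. The fit of all 12 libraries passed Adamts2 in Nox4 KO and Mmp11 in WT. In WT the correlations were weaker (0.0619, 0.415 and 0.525 for the same number, -0.473 to 0.315 for unlike numbers), so the pairing there is uncertain. The block left 3 members higher and 8 lower in WT, beside 293 and 628 of 10743 genes. At any fold its quasi-likelihood test also passed Mmp11 (-0.85, adjusted p = 0.0087) and Mmp17 (-0.45, adjusted p = 0.0211) in WT. With the block 4552 genes had an unadjusted p under 0.05 in WT, beside 4058 without it. Between genotypes, DESeq2, the block and the other fits called no member. The scalings moved the median of all genes by at most 0.01 on the log2 scale. The filter on low values kept the 15 members under 1 RPKM out of the main fit, and for the 8 members with at most 3 counts no change was detectable at this depth.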

Other observations

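Neighbouring members were set side by side after their values had been seen. Adamts1 (chr16:85793827-85803113) and Adamts5 (chr16:85856173-85901828), on the same strand, both fell. Adamts15 (chr9:30899155-30922452, minus strand) and Adamts8 (chr9:30942562-30963838, plus strand), which face away from each other, had log2 fold changes of opposite sign without the filter, -5.73 and 1.4 in WT and -5.54 and 1.21 in Nox4 KO. The cluster of MMP genes between Mmp13 (chr9:7272514-7283331) and Mmp7 (chr9:7692090-7699585) holds Mmp13, Mmp12, Mmp1b, Mmp3, Mmp1a, Mmp10, Mmp8, Mmp27, Mmp20 and Mmp7, of which Mmp3 alone reached a mean of 1 RPKM.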
